A study of Mus musculus with 4 samples.

Results

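The NR4A and EGR transcription factors were represented by 6 genes (Nr4a1, Nr4a2, Nr4a3, Egr1, Egr2 and Egr3), taken by exact symbol from the 31053 genes counted in every library. Their raw UMIs (unique molecular identifiers, 1 per captured transcript) were followed across immune classes of the mouse lung and between Lmna_KO and WT libraries. The Lmna_KO mice were Lmna-flox/flox Vav1-cre+/- and the WT mice were Lmna-flox/flox Vav1-cre-/-, so both groups carried the floxed Lmna alleles and Cre was present in the Lmna_KO mice alone. Vav1-cre is active in blood-forming cells and their descendants, and an effect of Cre cannot be told apart from the loss of Lmna. All mice were C57BL/6J and 10 weeks old, and the sorted population was live CD45.2+ cells, so each group had 2 libraries of mixed lung immune cells. Lmna is the gene for lamin A and lamin C, proteins of the nuclear lamina, and the comparison asks how their loss alters transcription in lung immune cells.

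NR4A proteins are orphan nuclear receptors, and EGR proteins are zinc finger factors that bind GC-rich sites. Both families belong to the immediate early genes, whose transcription starts within minutes of a stimulus through kinases that act on CREB at cAMP response elements and on serum response factor at CArG boxes. In mice, Nr4a1 is required for nonclassical monocytes, Nr4a3 is linked to dendritic cell migration, Egr2 is a regulator of alveolar macrophage identity, and Egr2 and Egr3 restrain T cell activation. Immediate early genes also respond to tissue dissociation, a step needed to sort cells from a solid organ.

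The 250 bases before the transcription start are shown for 4 members because the group is defined by stimulus-driven transcription (RefSeq, GRCm38.p6, 5′ to 3′ on the gene's strand). Capitals mark the cAMP response element half-site TGACG, read on both strands, and the CArG box. Nr4a1 (ENSMUSG00000023034) spans chr15:101254269-101274795 on the plus strand, Nr4a2 (ENSMUSG00000026826) chr2:57106830-57124003 on the minus strand, Nr4a3 (ENSMUSG00000028341) chr4:48045153-48086447 on the plus strand and Egr2 (ENSMUSG00000037868) chr10:67535475-67542188 on the plus strand (mm10, GENCODE M21), and 0 other annotated genes overlap any member. The windows are chr15:101266596-101266845 (plus strand) for Nr4a1, chr2:57124004-57124253 (minus strand) for Nr4a2, chr4:48045055-48045304 (plus strand) for Nr4a3, whose RefSeq start lies 152 bases from the principal annotated start, and chr10:67537619-67537868 (plus strand) for Egr2.
Nr4a1: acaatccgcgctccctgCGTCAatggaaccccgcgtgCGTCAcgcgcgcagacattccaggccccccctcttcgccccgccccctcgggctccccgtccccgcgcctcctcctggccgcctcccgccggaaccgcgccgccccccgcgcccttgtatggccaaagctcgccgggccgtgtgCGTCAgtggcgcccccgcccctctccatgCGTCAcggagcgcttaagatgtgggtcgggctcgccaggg
Nr4a2: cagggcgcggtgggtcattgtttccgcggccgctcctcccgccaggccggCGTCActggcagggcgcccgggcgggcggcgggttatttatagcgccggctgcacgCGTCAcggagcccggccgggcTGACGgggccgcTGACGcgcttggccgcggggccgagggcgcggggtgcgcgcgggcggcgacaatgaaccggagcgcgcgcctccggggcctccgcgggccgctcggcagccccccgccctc
Nr4a3: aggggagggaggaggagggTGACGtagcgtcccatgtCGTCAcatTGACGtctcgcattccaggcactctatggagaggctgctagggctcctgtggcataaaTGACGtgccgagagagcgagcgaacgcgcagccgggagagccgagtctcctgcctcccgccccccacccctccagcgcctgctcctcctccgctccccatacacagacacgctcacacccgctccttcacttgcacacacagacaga
Egr2: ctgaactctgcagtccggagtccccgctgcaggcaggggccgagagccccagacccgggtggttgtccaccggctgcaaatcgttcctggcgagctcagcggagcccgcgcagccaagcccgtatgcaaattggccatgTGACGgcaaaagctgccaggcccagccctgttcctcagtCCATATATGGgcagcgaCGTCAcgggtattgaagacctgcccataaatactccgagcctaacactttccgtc
Each NR4A window held 4 half-sites. The Egr2 window, at the principal annotated start, held 2 half-sites and 1 CArG box. Egr2 has further RefSeq starts. The window before chr10:67535499 held 0 half-sites and 0 CArG boxes, and that before chr10:67537566 held 0 half-sites and 1 CArG box. Those of starts 1 and 61 bases from the principal start held the same counts as the window shown. Among 32851 RefSeq windows of the same length, 17.8% held at least 1 half-site, 3.90% at least 2, 0.137% at least 4 and 1.47% a CArG box. The full element TGACGTCA, which contains the half-site on each strand, occurred in 1.55% of all windows and in 0 of these 4. An EGR site (GCGNGGGCG, both strands, left in lower case) occurred in the Nr4a1 and Nr4a2 windows, 1 match each, and in 4.70% of all windows. These are letter matches in a fixed window and were not tested for binding.

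The libraries held 21780914 and 21849805 UMIs (Lmna_KO 1 and 2) and 26433722 and 27045250 UMIs (WT 1 and 2), and 14720 cells remained after filtering. Cells were assigned to 9 tested classes by cluster and by their own marker genes, and class names stand for cells that resemble the named type by those markers. The members and 20 other immediate early genes took no part in clustering or gating. Between 2 and 7 cell barcodes were shared by any pair of libraries. Clusters named by T cell precursor markers came mostly from WT 2 (484 of 546 cells) and were set aside. Of these, a cluster was led by Rag1 and another by cell cycle genes. Lmna itself was lower in Lmna_KO alveolar macrophages, where it had 59.0 and 76.0 CPM (UMIs scaled to 1000000 per class sum, normalised), against 373 and 330 CPM in WT (log2 fold change -2.38 ± 0.18, adjusted p = 1.73e-08 by edgeR). Lmna passed the threshold in none of the 8 other classes, and had too few counts for a test in nonclassical monocytes, neutrophils and CD8 T cells. It was low in classical monocytes, with 6.41 and 12.3 CPM in Lmna_KO, against 6.55 and 11.99 CPM in WT. Conventional dendritic cells had more, with 32.3 and 68.7 CPM in Lmna_KO, against 123 and 167 CPM in WT (adjusted p = 0.203 by edgeR). NK cells had 4.23 and 10.7 CPM of Lmna in Lmna_KO, against 18.0 and 27.6 CPM in WT (log2 fold change -1.47 ± 0.43, adjusted p = 0.122 by edgeR).

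The members differed strongly in where they were expressed. Levels across classes are CPM normalised over all class sums together, as the mean ± SD of the 4 libraries, and 3′ counts were not divided by gene length. Neutrophils stood above the mean of the other classes for 6 of 6 members, by 1.72 (Nr4a2) to 6.41 (Egr1) on the log2 scale (edgeR quasi-likelihood test, library as a block, adjusted p at most 1.26e-06). Of all genes 33.6% were called higher in neutrophils by the same test, so a call alone is common. The order of classes depends on the scale. With CPM normalised within each class, Nr4a1 was 904 to 1738 CPM in neutrophils and 1186 to 1510 CPM in nonclassical monocytes, and Egr2 was 88.2 to 160 CPM in neutrophils and 129 to 261 CPM in alveolar macrophages. On that scale the neutrophil libraries also overlapped those of conventional dendritic cells for Nr4a3 and Egr3. Conventional dendritic cells were also above the mean of the other classes for 6 of 6 members, against 26.2% of all genes. They were gated from a cluster that also held interstitial macrophage and plasmacytoid dendritic cell markers. Their own 6 markers summed to 810 to 1344 CPM, and the 6 classical monocyte markers to 1061 to 1266 CPM. By cluster name or own-marker gate alone the class had too few cells for a test. The part of other cells in its levels was not tested.

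Nr4a1, also known as Nur77, formed a graded series among myeloid cells. It had 2014 ± 542 CPM in neutrophils, 1294 ± 134 in nonclassical monocytes, 658 ± 80.4 in classical monocytes, 370 ± 130 in conventional dendritic cells and 194 ± 108 in alveolar macrophages (SD, n = 4). Nonclassical monocytes stood above the mean of the other classes by 2.99 ± 0.10 on the log2 scale (adjusted p = 4.39e-19 by edgeR, where 31.6% of all genes were called higher), and classical monocytes by 1.86 ± 0.11 (adjusted p = 1.46e-13, 34.2%). The nonclassical and classical monocyte libraries did not overlap, whereas neutrophils and nonclassical monocytes did, as did dendritic cells and alveolar macrophages. Lymphocytes followed, with 103 ± 13.6 CPM in B cells, 61.0 ± 13.1 in NK cells, 42.1 ± 9.21 in CD4 T cells and 16.5 ± 3 in CD8 T cells. The libraries of B cells did not overlap those of NK cells, nor those of CD4 T cells those of CD8 T cells. Members were called lower than the mean of the other classes for 3 of 6 in NK cells, 4 of 6 in CD4 T cells and 5 of 6 in CD8 T cells, and Nr4a1 was among them in each. The share of all genes called lower was 24.2%, 27.9% and 29.1% in those classes.

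Nr4a2, known as Nurr1, was the one member that led in a lymphocyte class. It had 82.5 ± 4.89 CPM in NK cells, 73.2 ± 23.2 in conventional dendritic cells, 72.6 ± 19.0 in neutrophils, 53.7 ± 16.3 in classical monocytes and 31.0 ± 8.03 in nonclassical monocytes, and each neighbour in this order overlapped the next. NK cells lay above the mean of the other classes by 1.87 ± 0.20 on the log2 scale (adjusted p = 5.58e-09 by edgeR), where 29.7% of all genes were called higher. Alveolar macrophages had 16.3 ± 12.3 CPM and the remaining lymphocyte classes 5.37 to 12.1 CPM.

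Nr4a3, known as NOR-1, was low in both monocyte classes, where Nr4a1 was high. Its level was 127 ± 27 CPM in neutrophils, 60.9 ± 23.2 in conventional dendritic cells, 27.1 ± 14.6 in alveolar macrophages and 26.96 ± 6.50 in NK cells. Classical monocytes had 5.56 ± 1.90 CPM and nonclassical monocytes 4.02 ± 0.52 CPM, each below the mean of the other classes (by -1.42 ± 0.33 and -1.91 ± 0.35 on the log2 scale, adjusted p = 4.98e-04 and 3.01e-05 by edgeR, where 25.6% and 20.9% of all genes were called lower). B cells were lowest at 1.22 ± 0.83 CPM.

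Egr1 (ENSMUSG00000038418, chr18:34859823-34864984, plus strand, mm10) had its highest level of the 9 tested classes in neutrophils. It had 3773 ± 282 CPM there, 320 ± 12.7 in conventional dendritic cells, 217 ± 144 in alveolar macrophages, 152 ± 20 in classical monocytes and 82.6 ± 26.4 in nonclassical monocytes. Every neutrophil library exceeded every library of the other tested classes. B cells had 34.1 ± 7.98 CPM, NK cells 15.2 ± 5.23, CD8 T cells 7.96 ± 1.14 and CD4 T cells 6.56 ± 1.54, and only the CD8 and CD4 T cell libraries overlapped in this lower part of the order.

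Among the 9 tested classes, Egr2 was highest in a pair of them, neutrophils at 177 ± 46.5 CPM and alveolar macrophages at 170 ± 60.5 CPM, which overlapped. The next tested class, conventional dendritic cells, had 14.3 ± 6.74 CPM and overlapped neither, and the 6 other classes averaged 0.602 to 4.03 CPM. Alveolar macrophages lay 5.36 ± 0.16 above the mean of the other classes on the log2 scale (adjusted p = 2.27e-24 by edgeR), and 4 of 6 members were called higher there, against 39.6% of all genes. In cells, an Egr2 UMI was found in 74.8% of 543 alveolar macrophages (median 15109 UMIs per cell), while in the CD8 T cell libraries, which stand for background, the share was 0 to 0.546% at a median of 5100 to 5988 UMIs.

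Egr3 (ENSMUSG00000033730, chr14:70077203-70082614, plus strand, mm10) was the only member called higher in B cells. It had 105 ± 44.2 CPM in neutrophils, 39.7 ± 10.4 in conventional dendritic cells and 31.5 ± 9.97 in B cells. The dendritic cell and B cell libraries overlapped. B cells exceeded the mean of the other classes by 3.08 ± 0.34 on the log2 scale (adjusted p = 3.82e-08 by edgeR), where 40.8% of all genes were called higher and 5 of 6 members were called lower, as were 27.7% of all genes. In nonclassical monocytes, the class with the second highest Nr4a1, an Egr3 UMI was found in 0 of 1132 cells, which allows a share of up to 0.265% by counting error.

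**Figure D1:**
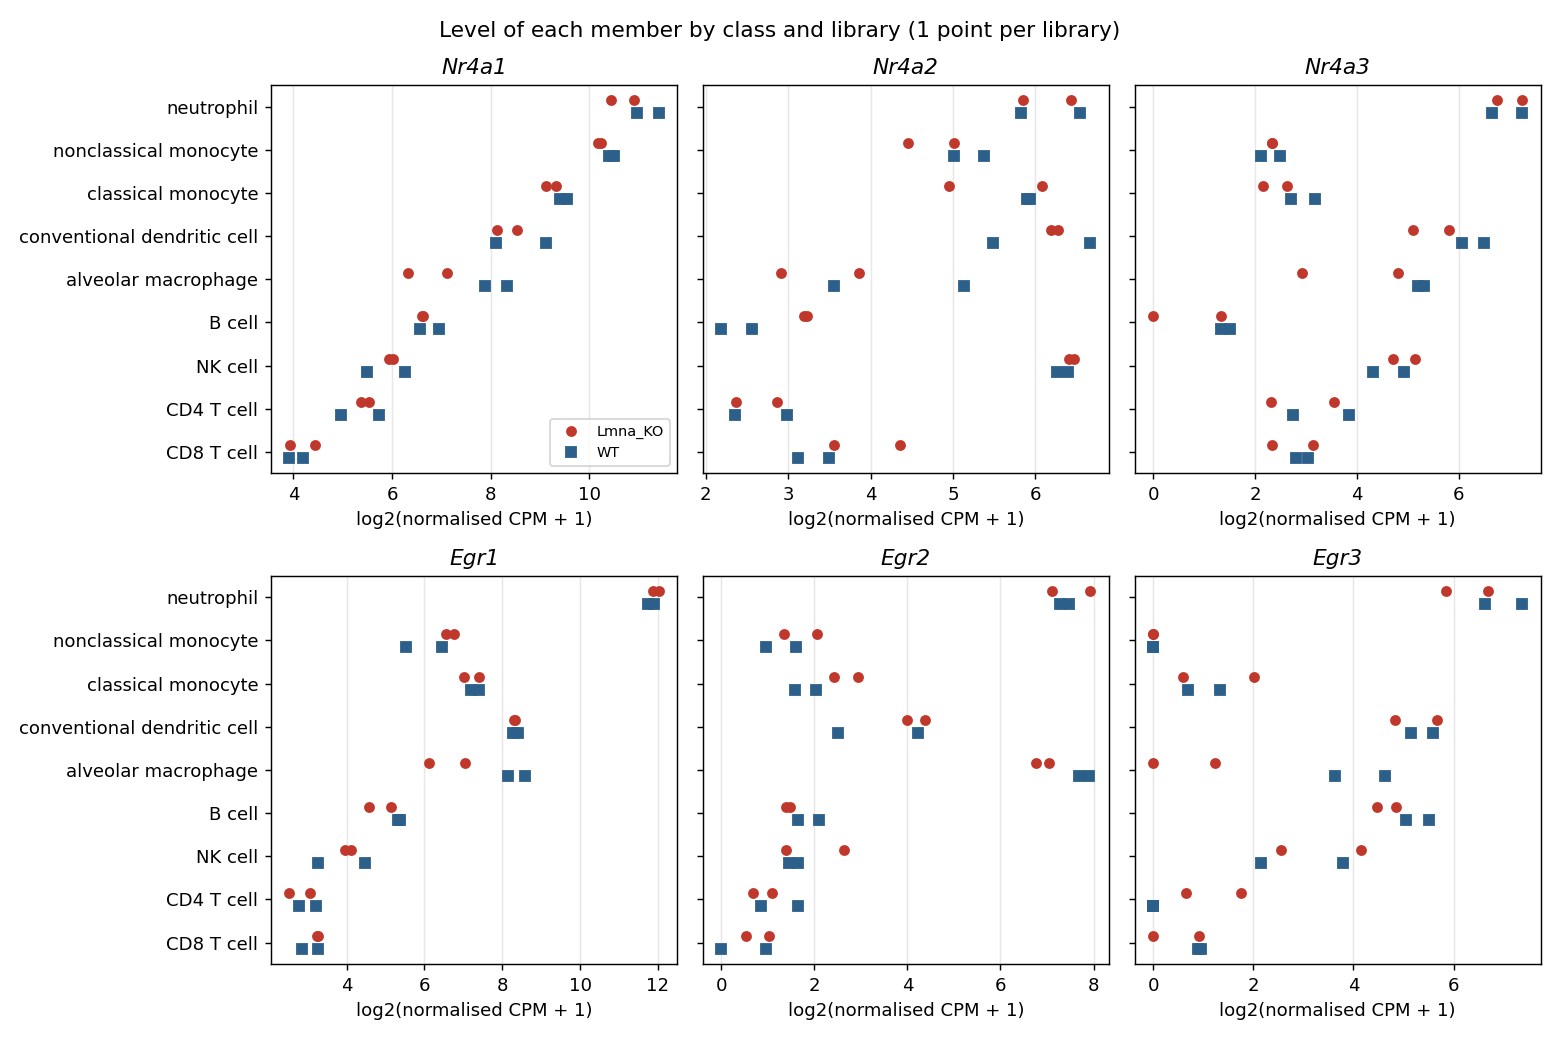
Level of each member in the 9 classes, as log2 of normalised CPM plus 1 on the x axis, with 1 point per library (red circles Lmna_KO, blue squares WT). On this scale neutrophils have the highest mean for all members but Nr4a2. Egr2 is higher in neutrophils and alveolar macrophages than in the other classes drawn. The Lmna_KO points lie left of the WT points in alveolar macrophages for Nr4a1, Nr4a3, Egr1, Egr2 and Egr3.

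Classes with too few cells for a test showed further contrasts, given as CPM of the class without further normalisation and with exact Poisson intervals for counting error. Mature migratory dendritic cells had 863 CPM of Nr4a3 (793 to 938), and 40 of 46 cells held an Nr4a3 UMI. The level was 1007 and 740 CPM in the Lmna_KO libraries, against 994 and 573 in the WT libraries, but the WT libraries had 5 and 4 of these cells. In B cells, where Nr4a3 was lowest, 0 to 0.793% of cells held a UMI of it. Egr3 was at 0 UMIs in the same 46 cells, which allows up to 4.69 CPM (3 counts). Basophils or mast cells had 3042 CPM of Egr1 (2887 to 3203), with a UMI in 84 of 89 cells, and 225 CPM of Egr3 (185 to 272). Egr1 there was 3282 and 3043 CPM in Lmna_KO, against 3310 and 2623 in WT. These values are not on the scale normalised over all classes. Normalised within the class, neutrophils had 2724 and 2402 CPM of Egr1 in Lmna_KO, against 2425 and 2209 in WT. Interstitial macrophages had 881 CPM of Egr1 (824 to 942) and 316 CPM of Nr4a1 (282 to 354) over 57 cells. Their Egr2 was 69.6 CPM (54.1 to 88.3), with a UMI in 24 of 57 cells. By library it was 81.9 and 81.4 CPM in Lmna_KO, against 56.2 and 52.2 CPM in WT. These levels rest on 16 and 14 Lmna_KO cells, against 18 and 9 WT cells, and the difference was not tested.

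In Lmna_KO alveolar macrophages 4 of the 6 members (Nr4a1, Egr1, Egr2 and Egr3) fell past the threshold of an adjusted p of 0.05 (edgeR quasi-likelihood test, Benjamini-Hochberg over 9050 genes), while 1.89% of all genes were called lower. Nr4a2 and Nr4a3 did not pass. Egr3 had 0 and 1 UMIs in Lmna_KO and passed the filter on low counts through the WT libraries alone. Its call therefore adds no support of its own. The median log2 fold change of the 6 members was -1.17, against 0.01 over all genes tested. The class held 52 and 34 cells in the Lmna_KO libraries, against 226 and 231 in the WT libraries, so the Lmna_KO sums rest on few cells. A 2 against 2 exact permutation test of 1 gene cannot go below p = 0.333, so the tests rest on the spread shared across genes. For the same reason, groups that do not overlap are common, and the share of all genes with separate groups was not counted.

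Nr4a1 had 93.2 and 165 CPM in Lmna_KO alveolar macrophages, against 352 and 261 CPM in WT. Both Lmna_KO libraries lay below both WT libraries. On the log2 scale the difference was -1.25 ± 0.26 (SE, as in every fold change given here), and edgeR gave an adjusted p of 0.0405.

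Egr1 had 154 and 82.4 CPM in Lmna_KO alveolar macrophages, against 420 and 311 CPM in WT, again with no overlap. Its log2 fold change was -1.63 ± 0.29 (adjusted p = 0.0345 by edgeR), the largest fall among members with more than 1 UMI in Lmna_KO. The adjusted p was 0.232 after each cell was thinned to 6988 UMIs, and 0.254 with cells chosen by their own markers alone, with log2 fold changes of -1.44 and -1.71.

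Egr2, the member with the clearest alveolar macrophage expression, had 155 and 129 CPM in Lmna_KO, against 223 and 261 CPM in WT. The groups did not overlap, and the log2 fold change was -0.76 ± 0.17 (adjusted p = 0.00969 by edgeR). Without WT 2 the log2 fold change was -0.66 (adjusted p = 0.119) and after thinning -0.56 (adjusted p = 0.0918), neither past the threshold.

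Egr3 was found once in the Lmna_KO alveolar macrophages: 0 UMIs in Lmna_KO 1 and 1 UMI in Lmna_KO 2, against 99 and 39 UMIs in WT 1 and WT 2. Per UMI of the class the Lmna_KO level was 0.0381 of the WT level, with an exact interval of 0.000958 to 0.216 for counting error. Its adjusted p was 0.0178 by edgeR, and 0.274 without Lmna_KO 1 and 0.122 without Lmna_KO 2. Without WT 1 the gene did not pass the filter on low counts.

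Nr4a3 had 7.76 and 32.3 CPM in Lmna_KO alveolar macrophages, against 38.8 and 43.2 CPM in WT, and its log2 fold change of -1.04 ± 0.38 did not pass (adjusted p = 0.166 by edgeR). Without Lmna_KO 2 it was -2.39 and passed (adjusted p = 0.00179 by edgeR), and without Lmna_KO 1 it was -0.35 (adjusted p = 0.653). Nr4a2 had 7.76 and 16.2 CPM in Lmna_KO, against 37.2 and 11.9 CPM in WT, so WT 1 alone was high and the groups overlapped. Its log2 fold change was -1.08 ± 1.21 (adjusted p = 0.749 by edgeR). Without WT 1 it was 0.00 (adjusted p = 0.9995), and without WT 2 it was -1.65 and passed (adjusted p = 0.0173).

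**Figure D2:**
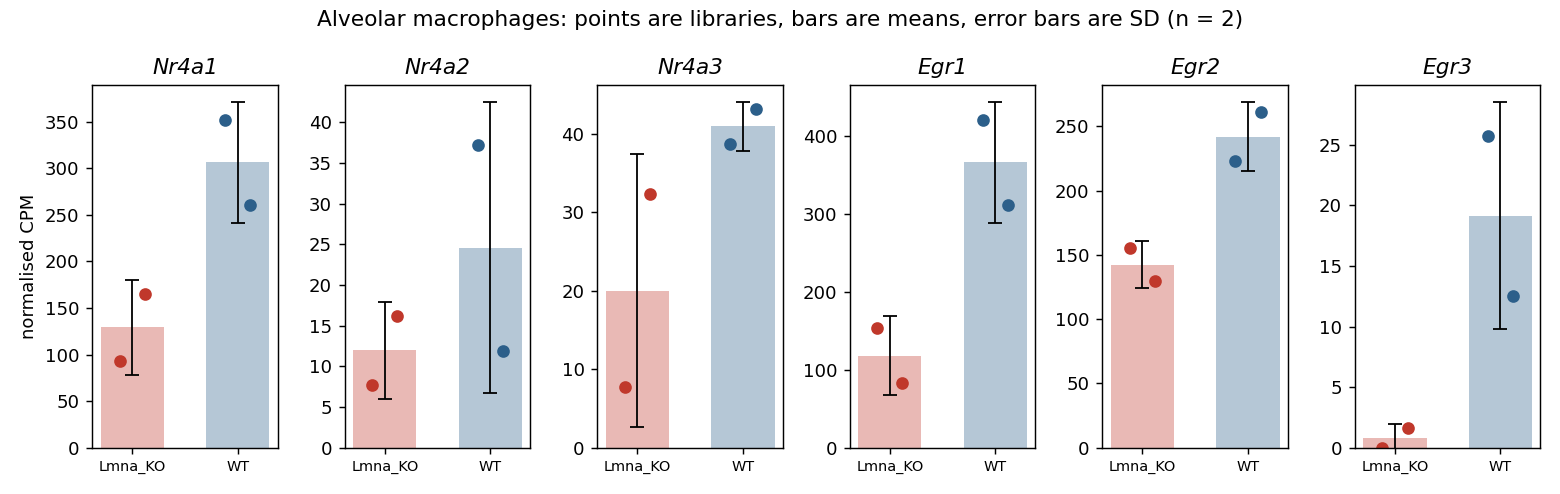
Normalised CPM of each member in alveolar macrophages (y axis, starting at 0), Lmna_KO left and WT right, with 1 point per library, bars for means and error bars for the SD of 2 libraries. The libraries of the groups are separate for Nr4a1, Nr4a3, Egr1, Egr2 and Egr3 and overlap for Nr4a2. By label order alone, 2 libraries lie apart from 2 others with probability 0.333, and the share over all genes was not counted.

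The lower sums went with fewer cells holding a UMI. An Egr1 UMI was found in 13 of 52 and 8 of 34 Lmna_KO alveolar macrophages (exact binomial intervals of 14.0 to 38.95% and 10.75 to 41.2%), against 62.0% and 54.1% in WT (55.3 to 68.3% and 47.45 to 60.7%). For Nr4a1 the shares were 44.2% and 52.9% in Lmna_KO, against 77.4% and 71.9% in WT. These differences were wider than the gap within either genotype. In CD8 T cells, the class with low levels of both genes, the Egr1 shares were 3.77% and 3.49% in Lmna_KO, against 3.10% and 3.47% in WT, and the Nr4a1 shares 8.85% and 7.53%, against 7.83% and 7.67%, at a median of 5100 to 5988 UMIs. Median depth in alveolar macrophages overlapped, at 13665 and 17271 UMIs per cell in Lmna_KO, against 16907.5 and 13461 in WT. With every cell thinned to 2205 UMIs the Egr1 shares were 14.9% and 5.88% in Lmna_KO, against 36.9% and 29.95% in WT, and the Nr4a1 shares 19.1% and 20.6%, against 41.0% and 37.8%.

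Egr2 differed less by share than by amount. An Egr2 UMI was found in 69.2% and 61.8% of Lmna_KO alveolar macrophages, against 77.0% and 75.8% in WT, and the thinned shares overlapped (34.0% and 14.7%, against 28.4% and 35.02%). Cells with an Egr2 UMI held on average 2.78 and 3.81 UMIs of it in Lmna_KO, against 4.93 and 4.63 in WT. For Egr1 that average was 7.62 and 6.38 UMIs in Lmna_KO, against 11.5 and 7.73 in WT. For Nr4a1 it was 2.61 and 5.67, against 7.73 and 4.87, which overlap.

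At least 3 of the 6 members were detected in 17.3% and 29.4% of Lmna_KO alveolar macrophages, against 54.9% and 49.4% in WT. Cells with 0 members made up 13 of 52 and 5 of 34 cells in Lmna_KO, against 13 of 226 and 22 of 231 in WT. A cell of Lmna_KO 2 held all 6 members, as did 6 cells of WT 1.

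**Figure D3:**
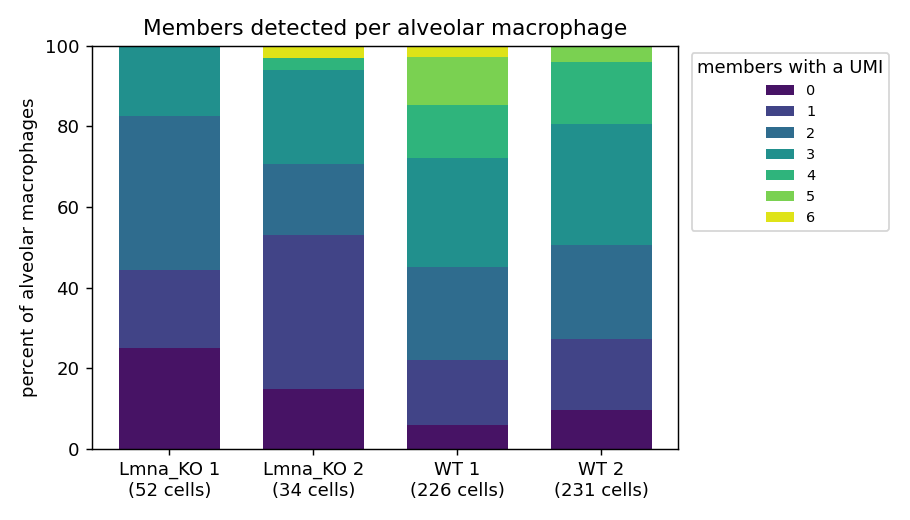
Percent of alveolar macrophages (y axis) by the number of members with at least 1 UMI (colours, 0 to 6) in each library, with the number of cells below each bar. The share with 3 or more members is 17.3% and 29.4% in the Lmna_KO libraries and 54.9% and 49.4% in the WT libraries.

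Other measures were also compared between the genotypes in the same class. Of 22 marker lists of other cell types, the summed level was separate between the groups for 8, higher in Lmna_KO for 3 and lower for 5. By label order alone, 2 libraries lie apart from 2 others with probability 0.333. The 8 of 22 is near that share, so the count does not show a shift with genotype. The 10 neutrophil markers summed to 251 to 298 CPM in Lmna_KO alveolar macrophages, against 186 to 218 CPM in WT, and 115253 to 180247 CPM in neutrophils themselves. Of these, 1 was at 0 in each Lmna_KO library and 0 in the WT libraries. The 6 nonclassical monocyte markers summed to 1143 to 1275 CPM in Lmna_KO, against 1810 to 1935 CPM in WT, with 0 or 1 marker at 0 in Lmna_KO and 0 in WT. The 5 plasma cell markers summed to 37.6 to 50.4 CPM in Lmna_KO, against 106 to 292 CPM in WT, with 1 to 3 at 0 in Lmna_KO and 0 or 1 in WT. The 7 basophil or mast cell markers summed to 1.58 to 3.01 CPM in Lmna_KO, against 5.82 to 18.2 CPM in WT, with 5 or 6 at 0 in Lmna_KO and 0 to 2 in WT. The 6 plasmacytoid dendritic cell markers summed to 73.7 to 97.7 CPM in Lmna_KO, against 101 to 114 CPM in WT, with 3 to 5 at 0 in Lmna_KO and 3 or 4 in WT. The 6 mature migratory dendritic cell markers summed to 21.1 to 26.8 CPM in Lmna_KO, against 10.4 to 20.6 CPM in WT, with 3 or 4 at 0 in Lmna_KO and 3 in WT. Fibroblast and erythroid markers were at most 3.15 CPM in any library. The part of these markers in the members' levels was not tested. The median mitochondrial share was 4.81% and 4.97% in Lmna_KO, against 5.42% and 5.21% in WT. Among cells with at most 5% mitochondrial UMIs and at least 500 genes, Egr1 was at 144 and 115 CPM without further normalisation in Lmna_KO (27 and 18 cells), against 595 and 341 in WT (81 and 97 cells). Nr4a1 was at 67.4 and 139 CPM in the same Lmna_KO cells, against 462 and 280 in WT.

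The fall differed between alveolar macrophages and the mean of the other classes for Nr4a1 and Egr1. The Lmna_KO over WT effect in alveolar macrophages minus the mean effect in the 8 other classes was -1.67 ± 0.23 on the log2 scale for Egr1 (adjusted p = 1.88e-04) and -1.11 ± 0.26 for Nr4a1 (adjusted p = 0.0266), in an edgeR fit over 6883 genes with library as a block, in which 1.29% of genes were more negative in alveolar macrophages. The Egr1 call held without any 1 library (adjusted p at most 0.0442). The Nr4a1 call was lost without Lmna_KO 1 (0.287), WT 1 (0.0918) or WT 2 (0.0807). By class, the Nr4a1 log2 fold change was -0.48 in neutrophils and -0.37 in conventional dendritic cells. It was -0.27 in classical and -0.26 in nonclassical monocytes, and none of these passed. In lymphocytes it ran from -0.17 in B cells to 0.18 in CD8 T cells. In the test of the difference, Nr4a2 (-1.22 ± 0.68, adjusted p = 0.427) and Nr4a3 (-0.71 ± 0.50, adjusted p = 0.540) did not pass. Egr2 and Egr3 had too few counts in other classes for this fit, and with a looser filter chosen after seeing the data Egr2 gave -1.12 ± 0.33 (adjusted p = 0.0564).

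In the 8 other classes, 0 of 35 tested member and class pairs passed the edgeR threshold, where 0.485% of all gene and class pairs did. At an unadjusted p under 0.05, 8 of the 35 passed, against 8.04% of all gene and class pairs, and the DESeq2 Wald test, which gave an adjusted p for 20 of the pairs, called 0 of them. The remaining 13 of 48 pairs had too few counts. In neutrophils Egr1 had 2724 and 2402 CPM in Lmna_KO, against 2425 and 2209 CPM in WT, which overlapped (0.15 ± 0.16 on the log2 scale, CPM normalised within the class). Nr4a1 in neutrophils had 1272 and 904 CPM in Lmna_KO, against 1738 and 1286 CPM in WT (-0.48 ± 0.20, adjusted p = 0.553 by edgeR, and 0.0151 without WT 2).

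Nonclassical monocytes, the class in which Nr4a1 has a known role, had 1241 and 1186 Nr4a1 CPM in Lmna_KO, against 1510 and 1394 CPM in WT. The libraries were separate, but the log2 fold change of -0.26 ± 0.12 did not pass (adjusted p = 0.518 by edgeR). Egr3 in B cells had 29.1 and 21.9 CPM in Lmna_KO, against 46.9 and 34.0 CPM in WT (-0.68 ± 0.19, adjusted p = 0.314 by edgeR, but 0.0361 without WT 2 and 0.0346 without Lmna_KO 1). Nr4a2 was on the other side of 0 in B cells (0.96 ± 0.33) and CD8 T cells (0.77 ± 0.30), without passing. Calls also appeared without WT 1 for Egr1 in nonclassical monocytes (1.12, adjusted p = 4.25e-04 by edgeR) and Egr3 in neutrophils (-1.03, adjusted p = 0.00393), and without Lmna_KO 1 for Nr4a2 in classical monocytes (adjusted p = 0.00850) and Egr3 in neutrophils (-1.19, adjusted p = 0.00766). When CD8 T cells were taken by cluster alone, Nr4a1, Nr4a2, Egr1 and Egr3 were called higher in Lmna_KO, by 1.21, 1.28, 1.56 and 2.88 on the log2 scale (adjusted p 0.00153 to 0.02 by edgeR). By cluster alone the class held 574 and 386 Lmna_KO cells, against 563 and 427 WT cells. With the cell gate it held 531 and 372, against 549 and 404. The smaller of the clusters so named (135 and 67 Lmna_KO cells, against 47 and 54 WT cells) was open to the class under both rules. Why the calls appeared by cluster alone was not tested.

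**Figure D4:**
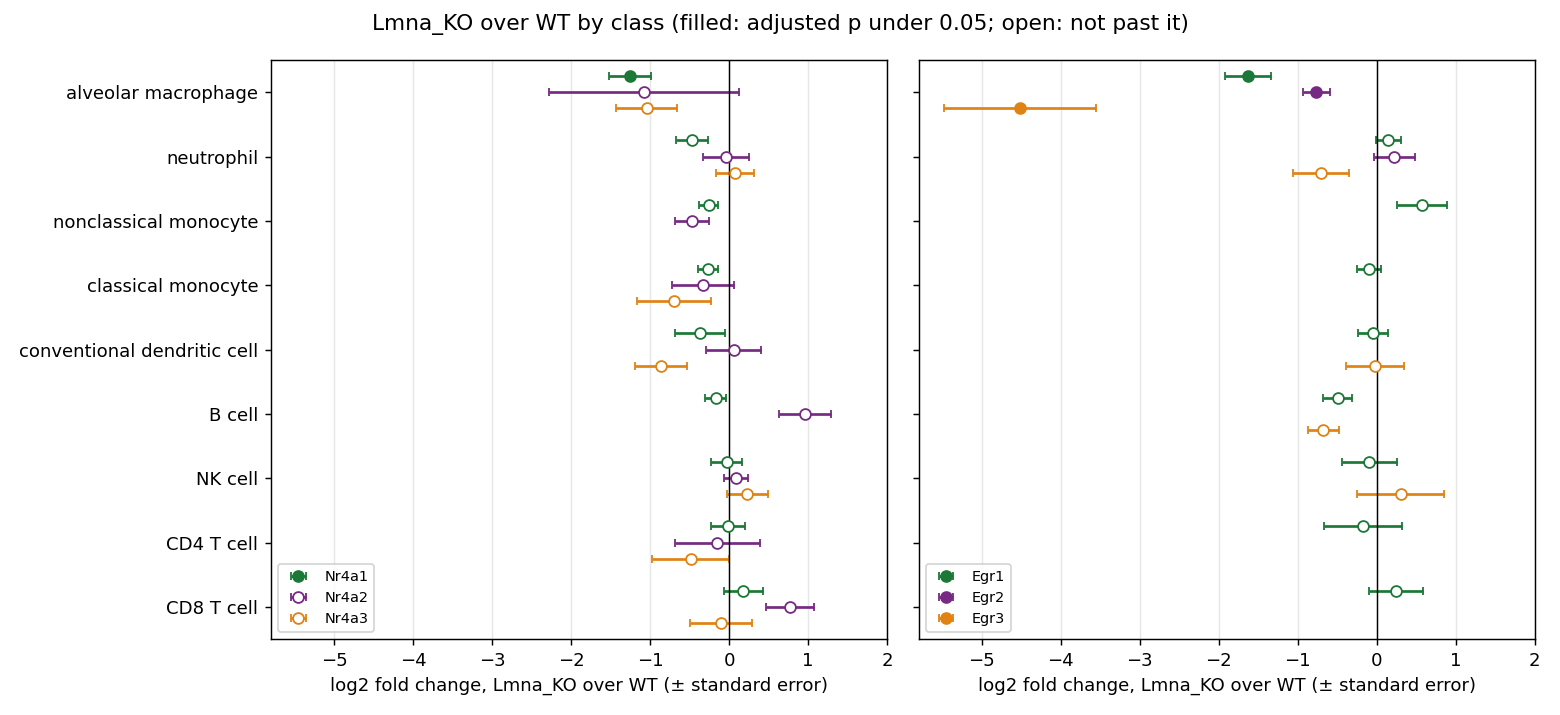
Log2 fold change of Lmna_KO over WT with its standard error (x axis) for each member and class, with NR4A genes left and EGR genes right, filled where the adjusted p was under 0.05. Filled points occur in alveolar macrophages alone, for Nr4a1, Egr1, Egr2 and Egr3, and the Egr3 point there rests on 1 Lmna_KO UMI, so its fitted position depends on the fit's prior count.

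In the sum of all cells of a library, Egr2 alone of the members was called, with 19.8 and 17.0 CPM in Lmna_KO, against 44.7 and 40.4 CPM in WT (-1.21 ± 0.13 on the log2 scale, adjusted p = 0.0459 by edgeR, where 0.346% of genes were called lower). Alveolar macrophages supplied 25.3% and 23.7% of the Egr2 UMIs of the Lmna_KO libraries, against 80.0% and 81.2% in WT. They were 1.42% and 0.975% of the Lmna_KO cells, against 5.92% and 6.14% of the WT cells. Fewer alveolar macrophages and less Egr2 per cell therefore cannot be told apart in this sum alone. Counted by class, 52 and 34 Lmna_KO alveolar macrophages held 100 and 80 Egr2 UMIs. In WT, 226 and 231 alveolar macrophages held 857 and 810. Neutrophils supplied 54.3% and 56.6% of the Egr1 UMIs in Lmna_KO, against 41.4% and 45.6% in WT, and the Egr1 sum gave 0.11 ± 0.12 on the log2 scale (adjusted p = 0.720 by edgeR). Alveolar macrophages supplied 1.80% and 0.955% of the Egr1 UMIs in Lmna_KO, against 24.6% and 17.0% in WT.

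Among genes that act with the members, none of the 6 measured partners and co-regulators, which include the EGR corepressors Nab1 and Nab2, passed in alveolar macrophages, with a median log2 fold change of -0.23 against 0.01 over all genes, where 4.33% of genes were called in either direction. Nab2 had 12.4 and 24.2 CPM in Lmna_KO, against 23.7 and 27.1 CPM in WT. Of 16 measured upstream kinases and factors (CREB, SRF, MEF2 and ERK pathway genes) 0 passed, with a median of -0.14, and of 6 ERK feedback genes 0 passed, with a median of 0.05. Of 18 measured genes reported as EGR or NR4A targets, 1 rose. It was Cdkn1a, the cell cycle inhibitor p21, with 925 and 876 CPM in Lmna_KO, against 414 and 384 CPM in WT (1.17 ± 0.14 on the log2 scale, adjusted p = 1.69e-05 by edgeR).

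Of the 20 AP-1 and other immediate early genes, 3 fell in Lmna_KO alveolar macrophages and 1 rose (adjusted p 7.54e-04 to 0.00266 by edgeR), and the list's median was -0.36 on the log2 scale. Fosb, an AP-1 subunit, had 247 and 218 CPM in Lmna_KO, against 693 and 450 CPM in WT (-1.30 ± 0.20). Ier2 had 189 and 218 CPM in Lmna_KO, against 360 and 355 CPM in WT (-0.81 ± 0.15). Nfkbiz, an NF-kB cofactor, had 46.6 and 80.8 CPM in Lmna_KO, against 172 and 146 CPM in WT (-1.33 ± 0.21). Socs3, a cytokine feedback inhibitor, had 49.7 and 87.3 CPM in Lmna_KO, against 21.1 and 24.5 CPM in WT (1.59 ± 0.25). Of 9 measured heat shock genes, which also respond to dissociation, 0 passed, and their median was 0.22.

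In the other classes, where 0 member pairs were called, a few genes of these lists were. Nonclassical monocytes had 2 immediate early genes and 1 reported target higher and 1 ERK feedback gene lower, neutrophils 2 immediate early genes higher, classical monocytes 1 higher and CD8 T cells 1 lower. The genes named here had adjusted p of 4.49e-04 to 0.0330 by edgeR. Socs3 rose in Lmna_KO classical monocytes (150 ± 24.3 CPM, against 46.5 ± 6.83 in WT), nonclassical monocytes (255 ± 31.8, against 140 ± 4.66) and neutrophils (468 ± 55.6, against 197 ± 65.8; SD, n = 2 each). Ier3 rose in Lmna_KO neutrophils (932 ± 196 CPM, against 375 ± 50.1 in WT). Spred2, an inhibitor of ERK signalling, fell in Lmna_KO nonclassical monocytes (15.4 ± 1.05 CPM, against 34.0 ± 3.69 in WT). Fos fell in Lmna_KO CD8 T cells (47.8 ± 12.2 CPM, against 78.9 ± 3.19 in WT). The share of all genes called in either direction was 0.481% in classical monocytes, 0.699% in nonclassical monocytes, 0.641% in neutrophils and 0.556% in CD8 T cells.

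The genes most like each member over the 9 classes, by Pearson correlation of log2 mean CPM plus 1 among 9944 genes, are a description over points that share 4 libraries. They were Dennd5a (r = 0.986), Cnnm4 and Zfand5 for Nr4a1, Fgl2 (0.920), Efhd2 and Cd244 for Nr4a2, and Mvb12b (0.907), Tmco3 and Arf3 for Nr4a3. For Egr1 they were Sesn2 (0.985), Spag9 and Smim3, and for Egr3 Kdm4a (0.915), Ppp1r11 and Aff1. The genes nearest to Egr2 were Cd63 (0.989), the alveolar macrophage gate marker Siglecf (0.973) and Il1a (0.972), each highest in alveolar macrophages.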

How the data were processed

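The authors deposited 1 matrix of unnormalised UMI counts for each library, from Cell Ranger 3.0.2 on mm10 per the submitters' processing notes, which also name Seurat 3.0.0. The labels' protocols give a Chromium 3′ v3 kit, some 9600 cells and 25000 reads per cell. From these counts, barcodes under 200 genes or over 10% mitochondrial UMIs were dropped, leaving 15181 of 16528, and the 461 cells most like simulated doublets were removed. Leiden clusters (scanpy 1.11.5, resolution 1, 22 clusters) were named from marker lists, and a cell also had to pass its own-marker gate. UMIs were summed per library and class with at least 20 cells in every library and tested with edgeR 4.0.16 (TMM, filterByExpr, quasi-likelihood, Benjamini-Hochberg threshold 0.05). Tests were checked on counts simulated with the same spread for every gene. That check does not show how the tests behave at the spread of these libraries. Depth limits low genes, and intervals cover counting error only. P-values measure the spread between these libraries. Free RNA was not subtracted. Named genes were the 6 members, Lmna, up to 10 called list genes in alveolar macrophages, up to 2 in each other class, and the 3 genes most like each member. The members and lists were chosen with earlier results of these data known. Alternatives were another normalization, DESeq2 1.42.0, filters, class rules, thinning, doublets kept and each library left out.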

Additional observations from a re-analysis of the deposited data

Results flagged for a closer look

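The Lmna_KO over WT effect on Egr1 differed between cell classes. It was more negative in alveolar macrophages than the mean effect in the 8 other classes by -1.67 on the log2 scale, and the edgeR test of that difference passed its threshold. The same test separated Nr4a1, with a difference of -1.11 on the log2 scale, a call that needed both WT libraries and Lmna_KO 1.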

How the results depend on the processing

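Members called lower in alveolar macrophages numbered 4, and 3 to 5 in the alternative runs that kept every library, except thinning to one depth. Thinning left 1, Nr4a1 (log2 fold change -1.07). The members called were not the same in each run. Egr1 was not called with the own-marker gate alone, and the DESeq2 Wald test gave an adjusted p for 3 members only. With 1 library left out the members called also changed. Genes called in that class numbered 392, against 172 with the DESeq2 Wald test, 643 with no filter on low counts, 602 with the own-marker gate alone and 160 to 553 with 1 library left out. Pairs called in the 8 other classes numbered 0, against 2 with no filter, 4 by cluster name alone, 1 by the gate alone and 0 to 3 with 1 library left out. Genes whose effect differed between alveolar macrophages and the other classes numbered 207, against 58 to 109 with 1 library left out, and the Nr4a3 difference, -0.71, ran from -0.92 without WT 1 to 0.17 without Lmna_KO 1. Thinning moved the share of cells with a UMI, Lmna_KO minus WT, to -19.5 points from -26.1 for Nr4a1, and to -23.1 points from -33.8 for Egr1. Thinning and leaving out a library use fewer counts or samples; for the other settings the cause was not tested. The labels do not say whether the replicate numbers pair the libraries. Deviations were correlated at -0.01 to 0.10 over 2 pairs, too few to settle it. With the replicate block 325 genes and 3 members were called in alveolar macrophages, and Nr4a1 had an adjusted p of 0.0829 by edgeR. The stricter cell filter left 18 alveolar macrophages in Lmna_KO 2, so that test was not run there.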

Other observations

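Groups too small or too uneven for a comparison also held UMIs of some members, given as CPM of the pooled cells without further normalisation. The values with 1 library left out were chosen after seeing the data and are given where they move a level by over 1.5 times. Regulatory T cells (91 cells) had 172 CPM of Nr4a1 (exact Poisson interval 138 to 213), or 93.2 CPM without Lmna_KO 2, and 47.5 CPM of Nr4a2 (30.5 to 70.7), while Egr2 and Egr3 were at 0, which allows up to 5.94 CPM (3 counts). Gamma-delta T cells (46 cells) had 136 CPM of Nr4a1 (95.2 to 188). The T cell precursor clusters (546 cells, mostly from WT 2) had 43.7 CPM of Nr4a1 (38.5 to 49.5) and 20.7 CPM of Egr1 (17.1 to 24.7). Without WT 2 these levels were 81.2 and 12.3 CPM, mostly from cells of the cluster led by cell cycle genes. Doublets included, that cluster held 24, 17 and 16 cells of Lmna_KO 1, Lmna_KO 2 and WT 1. The cluster led by Rag1 held 0, 6 and 0. Plasmacytoid dendritic cells (73 cells) had 33.8 CPM of Nr4a1 (21.7 to 50.3) and 95.8 CPM of Egr1 (74.4 to 122), or 57.0 CPM of Egr1 without Lmna_KO 1, and 0 Nr4a2 UMIs, which allows up to 4.23 CPM (3 counts).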
